A study of Mus musculus with 9 samples.

Results

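The Hedgehog pathway was followed here through 8 genes of 55228 in the count table, *Hhip*, *Ptch1*, *Smo*, *Sufu*, *Kif7*, *Gli1*, *Gli2* and *Gli3*. The group was chosen by the fall of *Hhip* in both edited lines, so the values of *Hhip* against *WT* are given as a description, with no test. The remaining 7 genes are core members of the same pathway. Of the 8, 7 passed the expression filter, *Hhip* only through *WT*, and *Gli2* did not pass.

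Poly-A RNA from 9 cultures of HC11 cells was sequenced, 3 cultures each of *WT*, *KD1* and *KD2*. HC11 is an epithelial line from the mammary gland of a BALB/c mouse. *WT* is the unedited parental line. The *KD1* and *KD2* lines, which the labels call *Vangl2* knockouts, were made from it with CRISPR/Cas9. For each, cells were nucleofected with 1 of 2 guides against *Vangl2*, a planar cell polarity gene, together with a repair template carrying stop codons. Each edited line was grown from a single colony and is therefore 1 clone. No clone of unedited cells was analysed, so editing, cloning and any change particular to a clone cannot be told apart. All 9 cultures were undifferentiated, grown with insulin (5 µg/mL) and EGF (10 ng/mL) in 10% FBS. The labels do not say that replicates are separately derived cultures, so the p-values measure the spread between these cultures, which may be technical.

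Hedgehog ligands bind the receptor Ptch1, which otherwise holds the membrane protein Smo inactive, and active Smo at the primary cilium lets Gli transcription factors switch on their targets. Sufu and the ciliary kinesin Kif7 regulate the Gli proteins, and Hhip is a membrane protein that binds and traps ligand. *Gli1*, *Ptch1* and *Hhip* are themselves transcribed in response to the signal in many tissues, and in the mouse embryo Gli3 acting as a repressor is needed for the formation of mammary buds.

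Between 19231428 and 28360592 counts fell on genes in each culture. A floor of 3 counts corresponds to 0.0997 CPM (counts scaled to library size and composition) in the deepest library and to 0.154 CPM in the library where 3 counts weigh most. This floor covers counting error only. *KD2* replicate 3 stood apart from the other cultures of its line. The chi-square of counts over genes, per degree of freedom, was 17.4 and 22.1 between it and *KD2* replicates 1 and 2, against 1.74 between those replicates. *WT* replicate 1 stood apart in the same way, at 13.1 and 10.7 from *WT* replicates 2 and 3, against 3.38 between those. Among *KD1* cultures the value ranged from 1.37 to 1.81. Where leaving out either culture changed a call of a member, *Vangl2* or a named pathway gene, that value is given too. Calls of markers and neighbouring genes, and the counts of wider list genes that rose or fell, were not checked in this way.

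*Vangl2*, the targeted gene, had 66, 99 and 86 counts in *WT*, 75, 48 and 69 in *KD1* and 90, 118 and 90 in *KD2*. Its level was lower in every *KD1* culture than in any *WT* culture, while the *KD2* and *WT* cultures overlapped. The log2 fold change was -0.63 ± 0.17 (SE, 3 cultures a group) in *KD1* (adjusted p = 0.00581; every adjusted p here is from the quasi-likelihood test of edgeR, adjusted by the Benjamini-Hochberg method over 15253 genes) and 0.05 ± 0.16 in *KD2* (adjusted p = 0.810). The *KD2* value was -0.04 without *WT* replicate 1. Each SE of a log2 fold change here is derived from the test, as the absolute log2 fold change over the square root of its F statistic. Where a line has few counts, this SE can be smaller than the counting error alone. Gene counts do not show the edited sequence, so they do not check the label of *KD2*, and the names of the lines here mean the libraries so labelled.

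The cultures expressed most listed markers of mammary epithelium, at levels that differed between the lines. *Cdh1* was at 691 ± 33.6 CPM (mean ± SD, n = 3) in *WT*, 895 ± 9.14 in *KD1* and 427 ± 9.17 in *KD2*, and the basal keratin *Krt5* at 2115 ± 139, 2157 ± 31.7 and 1087 ± 139 CPM. *Krt19* had 0 counts in all 9 cultures, and the 4 milk protein genes (*Csn2*, *Csn3*, *Wap*, *Lalba*) summed to 0.123 CPM in *WT*, 0 in *KD1* and 0.0409 in *KD2*. *Krt8* was at 157 ± 21.5 CPM in *WT*, 177 ± 2.99 in *KD1* and 268 ± 29.7 in *KD2*. Of 5 shared epithelial markers (*Epcam*, *Cdh1*, *Krt8*, *Krt18* and *Krt7*), 3 rose and 0 fell in *KD1* at an adjusted p under 0.05. In *KD2*, 1 (*Krt8*) rose and 2 fell. Of 4 basal markers (*Krt5*, *Krt14*, *Trp63* and *Oxtr*), 1 rose and 1 fell in *KD1*, and 0 rose and 4 fell in *KD2*. Of all genes, 26.9% rose and 30.0% fell in *KD1*, and 34.0% and 33.3% in *KD2*. The basal marker *Acta2* had 1, 5 and 5 counts in *WT*, 9, 6 and 9 in *KD1* and 39, 43 and 33 in *KD2*. It fails the filter once 1 line is left out of it and is not counted above, while the shares of all genes keep such genes. *Oxtr*, another basal marker, had 142, 222 and 147 counts in *WT*, 2, 3 and 1 in *KD1* and 100, 115 and 89 in *KD2*. In bulk samples, fewer cells that express a gene and less RNA per cell cannot be told apart.

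Over all genes tested, 26.9% rose and 30.0% fell in *KD1* against *WT* at an adjusted p under 0.05, and 34.0% rose and 33.3% fell in *KD2*. Of the 6 tested members other than *Hhip*, 0 rose and 3 fell in *KD1*, and 3 did not pass the test. In *KD2*, 1 rose, 4 fell and 1 did not pass. The rise, of *Gli3*, missed the test in 4 of 16 alternatives, and the fall of *Smo* in 12 of 16. The members were not tested against this background. It keeps genes that fail the filter once 1 line is left out of it, unlike the counts of the lists. The median log2 fold change of the 6 was -0.37 in *KD1* and -0.31 in *KD2*, beside -0.03 and 0.01 over all genes.

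With the further demand of a change above 2-fold (an absolute log2 fold change above 1, termed called below), 9.34% of all genes were called higher and 7.49% lower in *KD1*, and 14.5% and 6.71% in *KD2*. Of the 6 members, *Gli1* alone was called, lower in both lines. In the direct comparison of *KD2* with *KD1*, 34.8% of all genes passed the test with a higher level and 33.0% with a lower level. With the limit of 2-fold these shares were 14.7% and 8.58%. Of the 6 members, 3 were higher in *KD2* than in *KD1*, 1 was lower and 2 did not pass the test, and *Gli1* was again the 1 gene called. The comparisons of *KD1* and *KD2* with *WT* share their *WT* cultures, so a like change in both is not independent evidence.

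**Figure D1:**
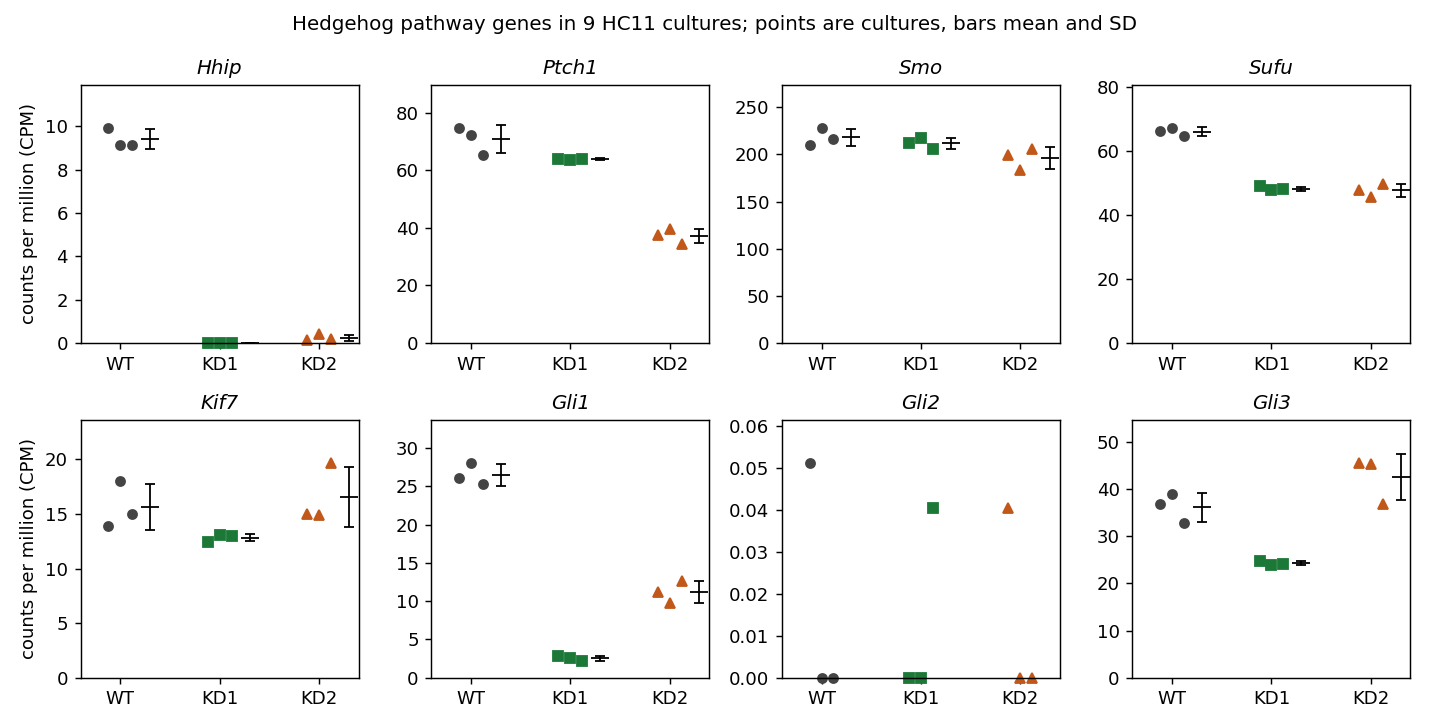
CPM of the 8 Hedgehog genes (vertical axes from 0, a scale for each gene) in the cultures of *WT* (circles), *KD1* (squares) and *KD2* (triangles), with the mean and SD of each line beside its points except for *Gli2*, which never exceeded 1 count. *Hhip* is at 0 in the *KD1* cultures, *Gli1* is lowest in *KD1* and intermediate in *KD2*, and *Ptch1* is lowest in *KD2*.

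The ligand genes were all but silent. *Shh* had 2, 0 and 1 counts in *WT*, 0, 0 and 1 in *KD1* and 0 in each *KD2* culture. *Ihh* had 3, 0 and 0 counts in *WT*, 0, 0 and 2 in *KD1* and 5, 2 and 2 in *KD2*. *Dhh* had at most 1 count in any culture. None of these genes passed the expression filter, and a difference between the lines was not detectable at this depth.

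Among 5 genes for ligand acylation and release, *Hhat*, *Disp1* and *Scube3* passed the filter, and *Scube1* and *Scube2* had at most 2 counts in any culture. *Hhat*, which palmitoylates the ligands, lay at 7.62, 9.07 and 8.68 CPM in *WT*, 5.20, 6.25 and 5.68 in *KD1* and 5.53, 5.52 and 4.91 in *KD2*. No edited culture reached the *WT* range. *Hhat* fell in both lines, with log2 fold changes of -0.57 ± 0.11 (adjusted p = 0.000663) and -0.67 ± 0.11 (adjusted p = 0.000155). *Disp1*, which releases ligand from the cell, lay at 10.1, 10.5 and 9.76 CPM in *WT*, 10.99, 10.5 and 10.2 in *KD1* and 12.4, 11.7 and 12.6 in *KD2*. Only *KD2* stood apart, and *Disp1* rose there (0.27 ± 0.08, adjusted p = 0.0104), with 0.06 ± 0.08 in *KD1* (adjusted p = 0.554). With no filter on low counts the *KD2* rise was missed (adjusted p = 0.0899, in a range from 0.00111 to 0.0899 over 16 alternatives). *Scube3*, which encodes a secreted protein of the family that helps release ligand, had 8, 6 and 4 counts in *WT*, 1, 2 and 1 in *KD1* and 11, 11 and 8 in *KD2*. Taking 3 counts per library as the floor, *Scube3* in *KD1* lay 2.42-fold or more under *WT*, and its level in *KD2* overlapped that in *WT*. It was at the limit of the filter, and no comparison of it is counted as tested. *Hhat* and *Disp1* were named after their values were seen.

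*Hhip*, the gene on which the group was selected, had 194, 229 and 187 counts in *WT*, which is 9.93, 9.15 and 9.12 CPM. In *KD1* it had 0 counts in all 3 cultures. In *KD2* it had 3, 12 and 4 counts, or 0.121, 0.399 and 0.197 CPM. No edited culture came near a *WT* culture, and the *WT* cultures varied little among themselves (9.40 ± 0.456 CPM). With the floor of 3 counts per library, *WT* exceeded *KD1* by at least 80.7-fold. By the fit, *WT* exceeded *KD2* by 36.6-fold, which is a log2 fold change of -5.19 ± 0.25 in *KD2*. This size rests on few reads, and it was -5.87 without *KD2* replicate 2 and -4.87 without *KD2* replicate 1.

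The difference between the edited lines in *Hhip* is described without a test too, since the gene was chosen from its levels in these lines and passed the expression filter only through *WT*. Every *KD2* culture had reads and no *KD1* culture had any, and the mean level in *KD2* (0.239 ± 0.144 CPM) was at least 2.05-fold above the *KD1* floor. The *KD2* mean rests largely on replicate 2 (0.399 CPM), and the median of the *KD2* cultures was 0.197 CPM. With 3 counts in 1 of the 3 *KD2* cultures, the size of the difference is known only roughly. Some reads of *Hhip* were thus present in *KD2*, and its absence in *KD1* holds down to about 0.111 to 0.121 CPM, which is 3 counts in those libraries.

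The co-receptors and other ligand binders *Cdon*, *Boc*, *Gas1*, *Lrp2* and *Gpc3* all passed the filter. *Lrp2* passed only through *KD2*, the line where it is high, and is left out of the counts. The shares of all genes keep such genes. Of the other 4, 1 rose and 3 fell in *KD1*, where 26.9% of all genes rose and 30.0% fell. In *KD2*, 2 rose and 2 fell, beside 34.0% and 33.3% of all genes. The medians were -0.88 in *KD1* and -0.22 in *KD2* on the log2 scale. *Cdon*, *Boc* and *Gas1* promote binding of ligand to the receptor, Lrp2 is an endocytic receptor that takes up Shh, and Gpc3 competes for ligand.

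*Gas1* lay at 41.8, 46.2 and 49.0 CPM in *WT*, 1.70, 2.36 and 1.97 in *KD1* and 24.2, 23.9 and 25.3 in *KD2*. The lines did not overlap, with *KD1* far below and *KD2* between. Relative to *WT* the log2 fold change was -4.51 ± 0.11 in *KD1* (adjusted p = 4.16e-13), a 22.7-fold fall, and -0.90 ± 0.08 in *KD2* (adjusted p = 2.95e-07). *KD2* exceeded *KD1* by 3.61 ± 0.11 (adjusted p = 3.10e-12).

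*Boc* lay at 2.61, 2.00 and 2.59 CPM in *WT*, 1.11, 0.786 and 1.17 in *KD1* and 0.929, 1.30 and 1.18 in *KD2*. Every edited culture was below every *WT* culture, with log2 fold changes of -1.22 ± 0.21 in *KD1* (adjusted p = 0.000234) and -1.06 ± 0.21 in *KD2* (adjusted p = 0.000516). *KD2* differed from *KD1* by 0.16 ± 0.23 (adjusted p = 0.564), a value that became -0.0026 without *KD1* replicate 2.

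*Cdon*, close kin of *Boc*, went opposite ways in the edited lines. It lay at 21.8, 21.9 and 18.4 CPM in *WT*, 14.3, 14.5 and 13.7 in *KD1* and 29.5, 29.8 and 26.3 in *KD2*. It fell in *KD1* (-0.55 ± 0.09, adjusted p = 0.000104) and rose in *KD2* (0.47 ± 0.08, adjusted p = 0.000208). The difference between the edited lines was 1.01 ± 0.08 (adjusted p = 1.18e-07), and was under 2-fold without *KD1* replicate 3 (0.98), *KD2* replicate 1 (0.99) or *KD2* replicate 2 (0.98) and with no filter (0.97).

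*Gpc3* and *Lrp2*, the scarcest of this list in *WT*, were higher in *KD2*. *Gpc3* had 4, 6 and 8 counts in *WT*, 17, 21 and 20 in *KD1* and 38, 68 and 50 in *KD2*, with the lines fully separate. Its rise was 1.42 ± 0.36 on the log2 scale in *KD1* (adjusted p = 0.00393) and 2.88 ± 0.30 in *KD2* (adjusted p = 1.53e-06). *Lrp2* had 0 counts in every *WT* culture, 2, 1 and 3 in *KD1* and 16, 18 and 16 in *KD2*. *KD2* was above the *WT* floor by at least 4.84-fold, which is a description with no test. For *KD1* against *WT*, with both groups at or under 3 counts, no fold is given.

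*Ptch1*, the main receptor, lay at 74.8, 72.3 and 65.4 CPM in *WT*, 64.1, 63.7 and 64.1 in *KD1* and 37.5, 39.5 and 34.5 in *KD2*. All *KD2* cultures were below all others, and the *KD1* cultures were just below the lowest *WT* culture. *Ptch1* fell in *KD2*, with a log2 fold change of -0.93 ± 0.07 (adjusted p = 4.35e-08), a 1.90-fold fall. In *KD1* the value was -0.15 ± 0.07 (adjusted p = 0.0746). Without *KD2* replicate 3, which enters the shared estimate of spread, it was -0.13 and passed the test (adjusted p = 0.0296), and over 16 alternatives the adjusted p ran from 0.0296 to 0.260. *KD2* differed from *KD1* by -0.78 ± 0.07 (adjusted p = 1.88e-07).

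The fall of *Ptch1* in *KD2* went along with its chromosome. *Ptch1* lies on chromosome 13, from 63508328 to 63573598 of GRCm38. The median log2 fold change of the 589 other tested genes on this chromosome was -0.66 in *KD2* against *WT*, and -0.05 in *KD1*. In *KD2*, *Ptch1* was -0.27 from that median. The 34 tested genes within 2 Mb of *Ptch1* had a median of -0.46 in *KD2*. Of these, 15 fell and 4 rose, beside 33.3% and 34.0% of all genes. Its nearest tested neighbours, *Fancc* and *Ercc6l2*, changed by -0.57 ± 0.08 (adjusted p = 2.11e-05) and -0.76 ± 0.09 (adjusted p = 4.47e-06) in *KD2*. In *KD1* their values were -0.04 ± 0.08 (adjusted p = 0.690) and -0.32 ± 0.09 (adjusted p = 0.00677). The part of the chromosome-wide shift in the fall of *Ptch1* was not tested.

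*Smo*, the signal transducer that Ptch1 restrains, lay at 210.3, 228 and 216 CPM in *WT*, 212, 218 and 206 in *KD1* and 199.8, 184 and 206 in *KD2*. *KD1* overlapped *WT* and *KD2*, and the *KD2* cultures lay just under the lowest *WT* culture. The log2 fold change was -0.04 ± 0.06 in *KD1* (adjusted p = 0.563), and 0.01 without *WT* replicate 2. In *KD2* it was -0.15 ± 0.06 (adjusted p = 0.0379).

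The *KD2* difference of *Smo* depended on the cultures and on the processing. It no longer passed the test without *WT* replicate 2 (-0.10), *WT* replicate 3 (-0.13), any 1 *KD1* culture (-0.15 each), *KD2* replicate 1 (-0.16) or *KD2* replicate 2 (-0.10), with the adjusted p running from 0.00750 to 0.552 over 16 alternatives. It was missed as well with library size alone (-0.04), 10 counts in every culture (-0.08) and median-of-ratios factors (-0.14). The same held with only the 6 cultures compared (-0.15) and with a replicate block (-0.15). The lowest adjusted p was reached without *KD2* replicate 3 (-0.16, adjusted p = 0.00750). *KD2* differed from *KD1* by -0.11 ± 0.06 (adjusted p = 0.125), which was -0.14 without *KD2* replicate 3 (adjusted p = 0.0184; range 0.0184 to 0.800) and turned to 0.02 when libraries were scaled by their size alone. That scaling moved the median of all genes by 0.11 in *KD2* against *WT* and by 0.13 in *KD2* against *KD1*, so differences of that size are within what the scaling decides.

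*Sufu*, which binds and restrains Gli proteins, fell by about the same amount in both edited lines. It lay at 66.3, 67.3 and 64.6 CPM in *WT*, 48.9, 47.7 and 48.2 in *KD1* and 47.8, 45.7 and 49.7 in *KD2*. All 6 edited cultures were below all 3 *WT* cultures. The log2 fold change was -0.45 ± 0.06 in *KD1* (adjusted p = 1.06e-05) and -0.47 ± 0.06 in *KD2* (adjusted p = 5.72e-06), falls of 1.37-fold and 1.38-fold. *KD2* and *KD1* overlapped and differed by -0.02 ± 0.06 (adjusted p = 0.802), a difference whose sign turned with library size alone (0.11), with at least 10 counts required in every culture (0.02) and without *KD2* replicate 2 (0.01).

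*Kif7*, the kinesin that organises the tip of the cilium, lay at 13.9, 18.0 and 15.0 CPM in *WT*, 12.4, 13.04 and 13.02 in *KD1* and 15.0, 14.9 and 19.7 in *KD2*. The *KD1* cultures were below all *WT* cultures, and *KD2* overlapped *WT*, with replicate 3 the highest of all 9. The log2 fold change was -0.29 ± 0.12 in *KD1* (adjusted p = 0.0526) and 0.07 ± 0.12 in *KD2* (adjusted p = 0.624). The *KD1* value passed the test without *WT* replicate 1 (-0.37), *KD2* replicate 2 (-0.29) or *KD2* replicate 3 (-0.27). It also passed with library size alone (-0.31), no filter (-0.28), only the 6 cultures compared (-0.25) and a replicate block (-0.29). It shrank to -0.15 without *WT* replicate 2 (adjusted p = 0.342), and over 16 alternatives its adjusted p ran from 0.0108 to 0.342. The *KD2* value changed sign without *WT* replicate 1 (-0.01) or *KD2* replicate 3 (-0.04).

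*KD2* exceeded *KD1* in *Kif7* by 0.36 ± 0.12 (adjusted p = 0.0153), by 0.23 without *KD2* replicate 3, and by 0.33 without *KD1* replicate 1, where the test was missed (adjusted p = 0.0587; range 0.00246 to 0.0587). Exons of *Ticrr* and *9330171B17Rik* on the other strand cover 20.3% of the exon bases of *Kif7*. The strandedness of the counting is not given in the sources used here, so reads of these genes may be mixed and the values of *Kif7* are uncertain to that extent. *Ticrr* itself was at 0.07 ± 0.07 in *KD1* (adjusted p = 0.414) and -0.46 ± 0.07 in *KD2* (adjusted p = 5.46e-05).

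*Gli1*, a transcriptional activator and the usual readout of an active pathway, lay at 26.1, 28.1 and 25.3 CPM in *WT*, 2.84, 2.63 and 2.18 in *KD1* and 11.2, 9.74 and 12.6 in *KD2*. The 3 lines were fully separate, with *KD1* lowest and *KD2* between it and *WT*. Relative to *WT* the log2 fold change was -3.37 ± 0.12 in *KD1* (adjusted p = 2.19e-11), a 10.4-fold fall, and -1.26 ± 0.10 in *KD2* (adjusted p = 1.07e-07), a 2.39-fold fall. *KD2* exceeded *KD1* by 2.12 ± 0.13 (adjusted p = 4.33e-09), or 4.34-fold.

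*Gli1* lies on chromosome 10, from 127329882 to 127341974 of GRCm38, where the other 694 tested genes had a median of -0.15 in both *KD1* and *KD2*. Its nearest tested neighbours, *Mars* and *R3hdm2*, changed by -0.07 ± 0.06 (adjusted p = 0.341) and -0.48 ± 0.05 (adjusted p = 3.27e-06) in *KD1*. In *KD2* both fell, by -0.43 ± 0.06 (adjusted p = 3.12e-05) and -0.75 ± 0.05 (adjusted p = 3.08e-08). Exons of *Arhgap9* and *Gm47200* on the other strand cover 6.55% of the exon bases of *Gli1*, so its values carry the same kind of uncertainty as those of *Kif7*. *Arhgap9* itself was at -0.24 ± 0.46 in *KD1* (adjusted p = 0.725) and 1.28 ± 0.37 in *KD2* (adjusted p = 0.00718).

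*Gli2*, the main activator in many tissues, had 1, 0 and 0 counts in *WT*, 0, 0 and 1 in *KD1* and 1, 0 and 0 in *KD2*. No difference could be tested in *Gli2*, which was at the limit of detection in all lines.

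*Gli3*, which is processed to a repressor in the absence of signal, lay at 36.8, 38.9 and 32.8 CPM in *WT*, 24.8, 24.0 and 24.1 in *KD1* and 45.7, 45.3 and 37.0 in *KD2*. Every *KD1* culture was below every other, and *KD2* replicate 3 fell within the range of *WT* while the other *KD2* cultures were above it. *Gli3* fell in *KD1*, with a log2 fold change of -0.57 ± 0.09 (adjusted p = 8.56e-05), a 1.49-fold fall. In *KD2* it rose by 0.24 ± 0.09 (adjusted p = 0.0252), or 1.18-fold.

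The rise of *Gli3* in *KD2* depended on the cultures and on the fit. Without *KD2* replicate 3 it was 0.35 (adjusted p = 6.60e-05). The test was missed without *WT* replicate 3 (0.20), *KD2* replicate 1 (0.19) or *KD2* replicate 2 (0.20) and in a fit of only the 6 cultures compared (0.24), and the adjusted p ran from 6.60e-05 to 0.101 over 16 alternatives. *KD2* exceeded *KD1* by 0.81 ± 0.09 (adjusted p = 1.73e-06).

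*Gli3* shares chromosome 13 with *Ptch1* but did not go with the chromosome in *KD2*, lying 0.91 above the median of the other tested genes there. The 19 tested genes within 2 Mb of *Gli3* had a median of -0.67 in *KD2*, and 10 of them fell and 1 rose, beside 33.3% and 34.0% of all genes. *Gas1*, also on chromosome 13, lay at -0.90 in *KD2* and -4.51 in *KD1*, beside chromosome medians of -0.66 and -0.05. No test of the genes against the chromosome was made. Exons of *Gm6556* on the other strand cover 1.96% of the exon bases of *Gli3*. *Gm6556* itself was at -1.14 ± 0.60 in *KD1* (adjusted p = 0.125) and 1.41 ± 0.42 in *KD2* (adjusted p = 0.00873), and its part in the values of *Gli3* was not tested.

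Compared per length of exon, *Smo* was the most abundant member in *WT* at 38.8 ± 1.62 CPM per kb of exon. *Sufu* followed at 8.59 ± 0.176, *Gli1* at 5.31 ± 0.285, *Ptch1* at 4.99 ± 0.341, *Gli3* at 3.77 ± 0.325, *Kif7* at 3.41 ± 0.461 and *Hhip* at 1.04 ± 0.0503 CPM per kb, with *Gli2* at 0.00248. The neighbours *Gli1* and *Ptch1*, and *Gli3* and *Kif7*, do not differ beyond their spread.

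The order of levels changed in the edited lines. In *KD1*, *Ptch1* (4.51 ± 0.0148 CPM per kb), *Kif7* (2.80 ± 0.0756) and *Gli3* (2.54 ± 0.0473) all stood above *Gli1* (0.510 ± 0.0680). In *KD2*, *Gli3* (4.45 ± 0.514) was the most abundant after *Smo* (34.9 ± 2.05) and *Sufu* (6.21 ± 0.263), ahead of *Kif7* (3.61 ± 0.596), *Ptch1* (2.62 ± 0.175) and *Gli1* (2.24 ± 0.284). There *Gli3* and *Kif7*, and *Ptch1* and *Gli1*, lie within about the sum of their SDs of each other.

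The wider pathway was read from 67 further genes in 6 lists, of which 58 passed the filter. The counts leave out *Lrp2* and *Scube3*, which fail the filter once 1 line is left out of it. Of the 56 others, 13 rose and 26 fell in *KD1*, and 22 rose and 21 fell in *KD2*. In *KD1*, 3 of these were called up past 2-fold and 6 down (16.1%), against 6 up and 1 down in *KD2* (12.5%). The 1 called down is *Boc*, which missed the limit of 2-fold without *WT* replicate 1 (-0.99), *WT* replicate 3 (-0.97) or *KD2* replicate 1 (-0.93), with library size alone (-0.95) and with 10 counts in every culture (-0.99). Of all genes, the shares called higher and lower were 9.34% and 7.49% in *KD1* and 14.5% and 6.71% in *KD2*. These shares keep genes that fail the filter once 1 line is left out of it, so they are not over a like set. The lists' median log2 fold change was -0.14 in *KD1* and -0.0086 in *KD2*.

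Of the genes that regulate Smo or carry pathway proteins in the cilium, none was past 2-fold against *WT*, where 9.34% of all genes were called higher and 7.49% lower in *KD1*, and 14.5% and 6.71% in *KD2*. All 20 of this list were tested, and 2 rose and 9 fell in *KD1*, with a median of -0.17, and 10 rose and 6 fell in *KD2*, with a median of 0.08. Of all genes, 26.9% rose and 30.0% fell in *KD1*, and 34.0% rose and 33.3% fell in *KD2*. The extremes were -0.74 and 0.74 in *KD1* and -0.86 and 0.78 in *KD2*. Between the edited lines 1 gene was called in each direction, beside 14.7% of all genes called higher in *KD2* and 8.58% lower. *Gpr161*, a ciliary receptor that represses the pathway, lay at 23.9, 23.5 and 21.6 CPM in *WT*, 37.7, 37.6 and 39.9 in *KD1* and 17.6, 18.4 and 18.5 in *KD2*. *Ift80*, a part of the ciliary transport complex, lay at 37.6, 39.5 and 37.7 CPM in *WT*, 23.8, 25.3 and 23.5 in *KD1* and 52.1, 52.3 and 43.5 in *KD2*. For both genes the 3 lines were separate, in opposite order. *Gpr161* was lower in *KD2* than in *KD1* (-1.08 ± 0.07, adjusted p = 5.20e-09), and *Ift80* was higher (1.03 ± 0.08, adjusted p = 3.66e-08). The call of *Ift80* missed the limit of 2-fold without *KD1* replicate 3 (0.999), *KD2* replicate 1 (0.99) or *KD2* replicate 2 (0.98) and with no filter (0.99), and that of *Gpr161* with library size alone (-0.95). Both genes were named after their values were seen.

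Of 19 kinases and ubiquitin ligases that act on Gli proteins, all were tested, and 4 rose and 8 fell in *KD1* (26.9% and 30.0% of all genes) and 2 rose and 9 fell in *KD2* (34.0% and 33.3% of all genes). The list median was 0.02 in *KD1* and -0.16 in *KD2*. *Ulk3*, a kinase that acts on Gli proteins, was called in *KD1*, at 40.0, 42.4 and 43.5 CPM in *WT* against 21.2, 19.6 and 19.9 in *KD1*, with 33.1, 29.5 and 36.8 in *KD2*. No edited culture reached the *WT* range, and *Ulk3* changed by -1.05 ± 0.08 in *KD1* (adjusted p = 9.35e-08) and -0.35 ± 0.08 in *KD2* (adjusted p = 0.00166).

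*Stk36*, the mammalian fused kinase, was called in *KD2*. It lay at 3.07, 3.16 and 4.29 CPM in *WT*, 3.98, 3.50 and 4.15 in *KD1* and 10.4, 10.2 and 11.7 in *KD2*. *KD2* stood apart and *KD1* overlapped *WT*, with log2 fold changes of 1.61 ± 0.14 (adjusted p = 1.69e-07) and 0.15 ± 0.15 (adjusted p = 0.423), the latter 0.34 without *WT* replicate 3 and 0.07 without *WT* replicate 1.

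Of 15 genes known as Gli targets in other tissues, 11 were tested. In *KD1*, 6 rose and 5 fell, with a median of 0.19, beside 26.9% and 30.0% of all genes. In *KD2*, 7 rose and 3 fell, with a median of 0.54, beside 34.0% and 33.3% of all genes. Called were 2 higher (*Foxl1* and *Ccnd1*) and 3 lower (*Foxf1*, *Mycn* and *Snai1*) in *KD1*, and 4 higher (*Foxf1*, *Foxl1*, *Snai1* and *Sfrp1*) and 0 lower in *KD2*. The shares of all genes called were 9.34% higher and 7.49% lower in *KD1*, and 14.5% and 6.71% in *KD2*. *Ccnd1*, *Snai1* and *Sfrp1* were named after their values were seen.

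*Foxf1*, a forkhead factor of mesenchyme, lay at 6.86, 7.55 and 6.05 CPM in *WT*, 0.221, 0.354 and 0.282 in *KD1* and 42.4, 40.6 and 41.7 in *KD2*. It moved in opposite directions, with log2 fold changes of -4.56 ± 0.18 in *KD1* (adjusted p = 5.40e-11) and 2.60 ± 0.09 in *KD2* (adjusted p = 3.11e-11). *KD2* exceeded *KD1* by 7.17 ± 0.14, or 144-fold (adjusted p = 3.72e-14). The level in *KD1* rests on 6, 9 and 7 counts, so the changes that involve *KD1* are less precise than their SE shows.

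*Mycn* had 13, 24 and 32 counts in *WT*, 1, 0 and 1 in *KD1* and 38, 56 and 45 in *KD2*. *KD1* was far below the other lines, and *KD2* overlapped *WT*. Against the floor of 3 counts per library, *Mycn* fell in *KD1* by at least 9.12-fold (adjusted p = 6.96e-06). *KD2* rose by 0.80 ± 0.27 on the log2 scale (adjusted p = 0.0188). This rise did not pass without *WT* replicate 1 (0.58) or *WT* replicate 2 (0.75), and was past 2-fold without *WT* replicate 3 (1.19), with the adjusted p between 0.00302 and 0.0733 over 15 alternatives.

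*Snai1*, a repressor of epithelial genes, split the lines like *Foxf1*. It lay at 7.98, 14.6 and 12.1 CPM in *WT*, 3.28, 3.58 and 3.79 in *KD1* and 27.7, 26.3 and 36.7 in *KD2*, with log2 fold changes of -1.72 ± 0.21 (adjusted p = 8.37e-06) and 1.37 ± 0.17 (adjusted p = 7.75e-06). *Foxl1*, another forkhead factor, rose in both lines from 3, 15 and 8 counts in *WT* to 50, 64 and 63 in *KD1* and 33, 26 and 26 in *KD2*, with log2 fold changes of 2.51 ± 0.32 (adjusted p = 1.44e-05) and 1.51 ± 0.36 (adjusted p = 0.00222).

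*Ccnd1*, the gene of cyclin D1, lay at 696, 726 and 723 CPM in *WT*, 1545, 1585 and 1500 in *KD1* and 626, 615 and 649 in *KD2*, with no overlap between lines. Its log2 fold change was 1.11 ± 0.05 in *KD1* (adjusted p = 2.16e-10) and -0.18 ± 0.05 in *KD2* (adjusted p = 0.00469). With library size as the only scaling, the *KD2* value was -0.07 and missed the test (adjusted p = 0.198, in a range from 0.000421 to 0.198 over 16 alternatives). *Sfrp1*, a secreted Wnt antagonist, lay at 134, 178 and 164 CPM in *WT*, 199, 196 and 193 in *KD1* and 346, 338 and 334 in *KD2*. It rose in both lines, by 0.31 ± 0.08 (adjusted p = 0.00546) and 1.10 ± 0.08 (adjusted p = 4.99e-08), and without *WT* replicate 1 by 0.20 and 0.99, the latter under 2-fold.

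**Figure D2:**
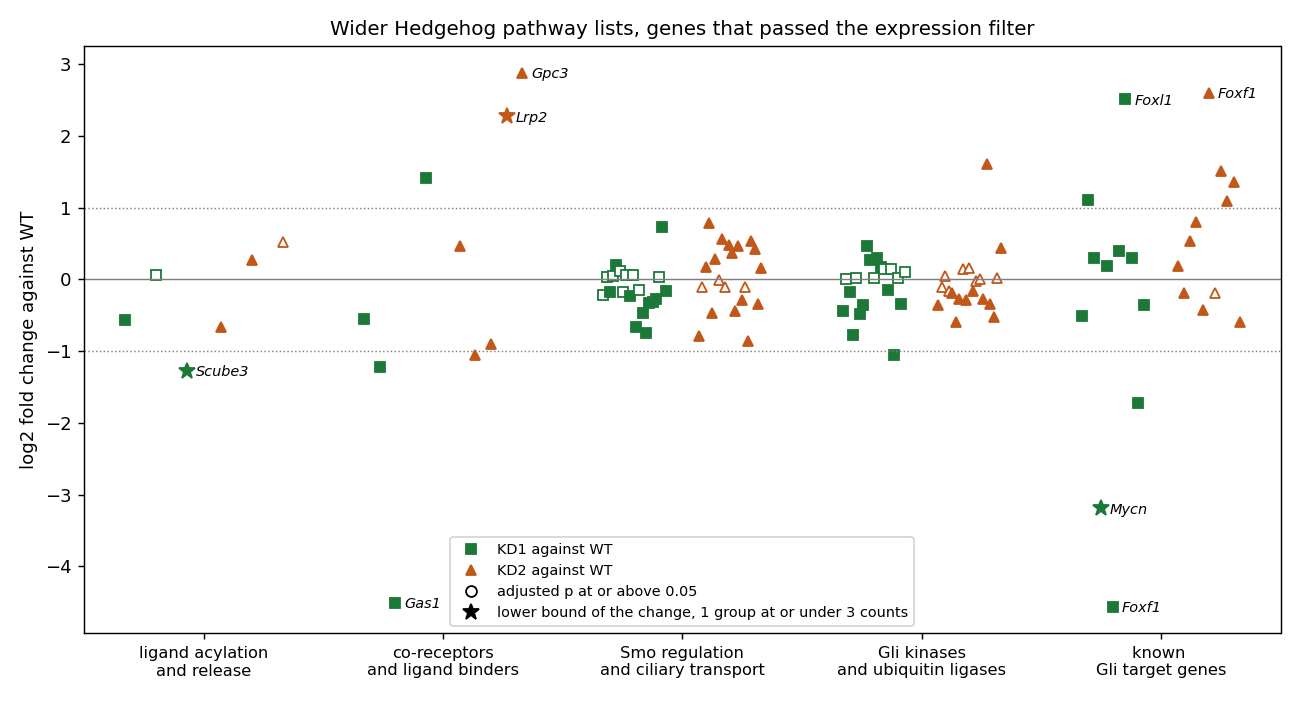
Log2 fold change against *WT* (vertical axis) of the 58 tested genes of the wider pathway lists (horizontal axis) in *KD1* (squares) and *KD2* (triangles), with open symbols where the adjusted p was 0.05 or more and stars at the lower bound of a change where 1 group had at most 3 counts per library; *Scube3* and *Lrp2* are drawn without a valid test, and *Lrp2* in *KD1* is left out, as both groups were that low. Genes of ciliary transport stay within 1 log2 unit of 0, whereas *Gas1* and *Foxf1* in *KD1* lie below -4.

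Several of these genes are also expressed by mesenchymal cells, whose markers moved between the lines. The 9 fibroblast markers (*Pdgfra*, *Pdgfrb*, *Col1a1*, *Col1a2*, *Col3a1*, *Dcn*, *Lum*, *Thy1* and *Vim*) summed to 130, 181 and 185 CPM in the *WT* cultures. The sums were 28.9, 27.5 and 25.7 in *KD1* and 1141, 1109 and 1303 in *KD2*. *Vim*, which many cultured epithelial cells also express, made up most of each sum, with means of 145, 18.3 and 1090 CPM.

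Of the 6 fibroblast markers tested, 0 rose and 5 fell in *KD1*, with a median log2 fold change of -3.31 (-3.16 with genes at the floor set to their bound), and 4 rose and 1 fell in *KD2*, with a median of 1.21. Of all genes, 26.9% rose and 30.0% fell in *KD1*, and 34.0% and 33.3% in *KD2*. *Thy1* had at most 1 count in any culture, and *Dcn* and *Lum* were at 0 in all 3 *WT* cultures. The markers did not share 1 order over the lines. *Vim*, *Pdgfrb* and *Col1a2* were lowest in *KD1* and highest in *KD2*, as *Foxf1*, *Snai1*, *Cdon* and *Gli3* were, though *Gli3* in *KD2* overlapped *WT*. Other genes of the wider lists, such as *Ift80* and *Mycn*, had this order of means too, *Mycn* with *KD2* overlapping *WT*. *Pdgfra* (7.95, 8.39 and 16.4 CPM in *WT*, *KD1* and *KD2*) was highest in *KD2*, and its *KD1* and *WT* cultures overlapped (0.07 ± 0.12, adjusted p = 0.618). *Col1a1* (7.03, 0.571 and 4.37 CPM in *WT*, *KD1* and *KD2*) was highest in *WT* and lowest in *KD1*, as *Gli1* and *Hhip* were. *Col3a1* (3.03, 0.0131 and 2.72 CPM) was lowest in *KD1* too, but its *KD2* and *WT* cultures overlapped (-0.17 ± 0.18, adjusted p = 0.428). The part of these markers in any result was not tested. The summed markers of the other cell types were low. The 4 endothelial genes summed to 2.20 CPM in *WT*, 5.18 in *KD1* and 1.85 in *KD2* (*Pecam1* the most abundant), the 5 immune genes to 4.13, 7.62 and 4.05 CPM (mostly *Cd68*, with *Adgre1* at 0), and the 4 adipocyte genes to 0.184, 0.0784 and 0.0953 CPM (*Cidec* the most abundant over all cultures, and no gene above 5 counts). *Pecam1* was at 2.16, 4.90 and 0.918 CPM, while the endothelial gene *Cdh5* had 0, 0 and 1 counts in *WT*, 5, 7 and 5 in *KD1* and 22, 24 and 7 in *KD2*.

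Some genes had a pattern over the cultures close to that of *Hhip*. Among 308 genes with a log2 fold change below -1 in both lines, the 5 with the highest Pearson correlation with *Hhip* in log2 CPM over the 9 cultures were *Vldlr* (r = 0.993), *Itm2a* (0.993), *Sh2d4a* (0.992), *Rtl3* (0.991) and *9330182L06Rik* (0.991). The 9 cultures form 3 clusters, 1 for each line, so these values mostly describe the levels of the lines.

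Of these 5 genes, 2 were nearly silent in the edited lines. *Itm2a* had 969, 1088 and 992 counts in *WT*, 4, 3 and 1 in *KD1* and 16, 22 and 19 in *KD2*. *Rtl3* had 573, 647 and 571 counts in *WT*, 3, 2 and 1 in *KD1* and 5, 11 and 10 in *KD2*. In both, the few counts left in *KD2* exceeded those in *KD1*. Choosing genes by their likeness to *Hhip* favours that order, so it is a description with no test.

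None of the 19 other tested genes within 2 Mb fell as far as *Hhip*, which was chosen for its fall. Genes there that were not tested are not covered. *Hhip* lies on the minus strand of chromosome 8, from 79965851 to 80058006 of GRCm38, and its exons overlap another gene (*Gm27820*, on the other strand) over 1.93% of their bases. The 19 other tested genes within 2 Mb had a median log2 fold change of -0.13 in *KD1*, where 8 fell and 3 rose, and of -0.17 in *KD2*, where 8 fell and 4 rose. Of all genes, 30.0% fell and 26.9% rose in *KD1*, and 33.3% fell and 34.0% rose in *KD2*. The largest falls were of *Inpp4b* in *KD1* (-1.67, adjusted p = 1.14e-07; -0.91 in *KD2*, adjusted p = 2.26e-05) and *Gm2225* in *KD2* (-1.19, adjusted p = 0.00875; -1.08 in *KD1*, adjusted p = 0.0159), which were named after their values were seen. The nearest tested genes were *Anapc10*, with -0.16 ± 0.10 in *KD1* (adjusted p = 0.189) and -0.04 ± 0.10 in *KD2* (adjusted p = 0.701), and *Gm5909*, with 0.20 ± 0.28 (adjusted p = 0.567) and -0.78 ± 0.32 (adjusted p = 0.0449). On chromosome 8 as a whole, the median was -0.26 in *KD1* and -0.19 in *KD2*.

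**Figure D3:**
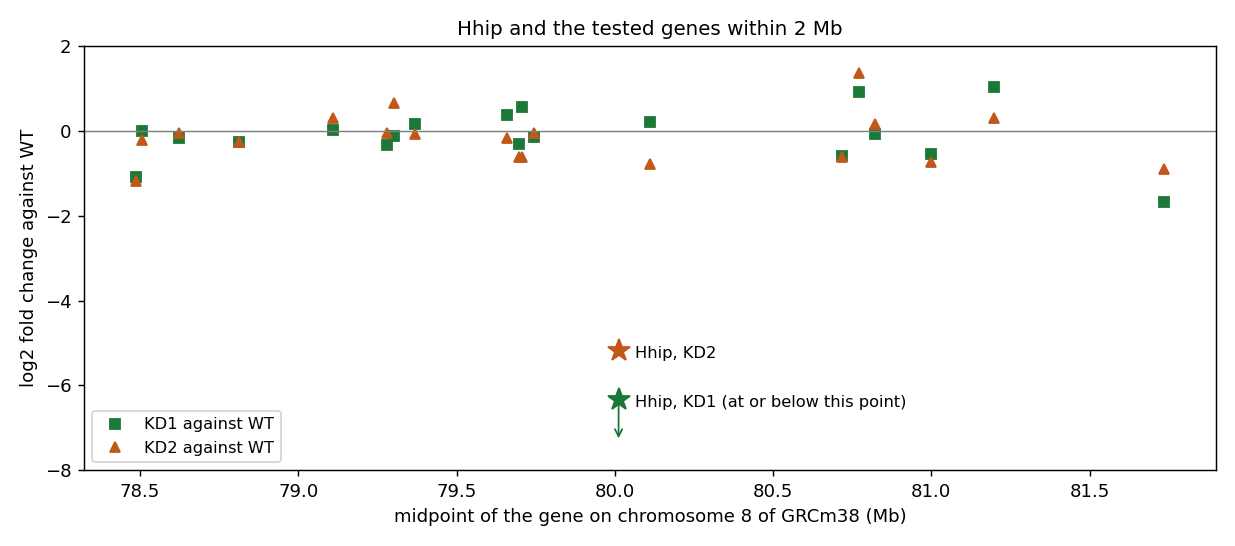
Log2 fold change against *WT* (vertical axis) of *Hhip* (stars) and the 19 other tested genes within 2 Mb on chromosome 8 of GRCm38 (horizontal axis, midpoint of each gene in Mb) in *KD1* (squares) and *KD2* (triangles). *Hhip* in *KD1* is drawn at the bound given by 3 counts per library, with an arrow since the true value lies at or below it, and no other gene falls below -2.

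The sequence before the start of *Hhip* is shown because *Hhip* is the member whose transcript was lost or nearly so, and because it is rich in CpG, the dinucleotide at which promoters can be methylated. It holds 28 CpG in 250 bases, more than 92.4% of 32851 mouse promoter windows of that length, whose median is 6. The sequence is from RefSeq, chr8:80058009-80058258 of GRCm38.p6, minus strand, written 5′ to 3′ with CpG in capitals.
Hhip: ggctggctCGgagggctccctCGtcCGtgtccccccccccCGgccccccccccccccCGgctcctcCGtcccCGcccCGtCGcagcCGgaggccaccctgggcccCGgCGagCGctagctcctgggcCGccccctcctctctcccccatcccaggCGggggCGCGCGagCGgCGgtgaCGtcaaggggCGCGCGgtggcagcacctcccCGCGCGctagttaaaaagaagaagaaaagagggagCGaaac

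Of the 8 members, 7 had such a window in the table, and *Gli1* is named only. The windows of *Ptch1* (41 CpG), *Gli3* (34), *Kif7* (25), *Gli2* (22), *Smo* (15) and *Sufu* (8) held more CpG than the median window as well. Whether CpG content goes with the level of these genes was not tested. The GLI consensus GACCACCCA was searched on both strands and is in 0 of the 7 windows, beside 0.225% of all windows, which says only that these letters are not in these 250 bases. Methylation was not measured in these data.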

How the data were processed

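For 9 cultures, the authors deposited a table of read counts by gene, not normalized. For these the authors trimmed reads with fastp, aligned them to GRCm38 with HISAT2 and counted with featureCounts, and they tested with DESeq2. Line and replicate number come from the labels, and 0 columns had no culture. Depth was 20030410, 25505223 and 20944890 counts in *WT* replicates 1 to 3, 27896032, 26542868 and 25514438 in *KD1*, and 23601785, 28360592 and 19231428 in *KD2*.

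Here, genes that passed edgeR's expression filter (15253 of 55228) were fitted in edgeR 4.0.16 (R 4.3.3, limma 3.58.1), all cultures in 1 model with TMM scaling, with the quasi-likelihood test and Benjamini-Hochberg adjustment. A gene passed at an adjusted p under 0.05 and was called if the absolute log2 fold change was also above 1. Groups with at most 3 counts in every library were set to 3 counts, and the fold is then a lower bound. Genes that fail the filter once 1 line is left out of it (*Hhip*, *Lrp2* and *Scube3* of those described, and *Acta2* of the markers) are not counted as tested. The shares of all genes keep such genes. Scripts were tested on simulated data. Alternatives were DESeq2 1.42.0, median-of-ratios factors, library size alone, no filter, 10 counts in every culture, only the 6 cultures compared, a replicate block, and each culture left out in turn.

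The named genes are the members, *Vangl2*, the ligands, the co-receptors with any count, and up to 3 called genes of each other list. Genes outside this rule are marked in the text. The members and lists were chosen with earlier results of these data known. Positions and exon lengths are from a GENCODE release of GRCm38 other than the one the paper names, and 15045 of the 15253 tested genes were placed by a unique symbol. Promoters are from RefSeq.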

Additional observations from a re-analysis of the deposited data

Results flagged for a closer look

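Named genes were flagged where the edited lines differed from each other at an adjusted p under 0.05 (edgeR), although both carry an edit of the same gene. Values are log2 fold changes of *KD2* relative to *KD1* with their standard errors. Where a line has few counts, as for *Foxf1* and *Mycn* in *KD1*, the standard error can be smaller than the counting error alone. Each line is 1 clone, so a difference between the guides and a difference between clones cannot be separated, and the causes were not tested.

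Among the pathway members, *Hhip* had a fitted value of 5.63, which rests on 0 counts in *KD1* and is bounded at 2.05-fold or more. The bound rests largely on *KD2* replicate 2. The *Hhip* difference counts as not tested, since the gene was chosen from its levels in these lines and passed the expression filter only through *WT*. *Gli1* was at 2.12 ± 0.13, *Gli3* at 0.81 ± 0.09, *Kif7* at 0.36 ± 0.12 and *Ptch1* at -0.78 ± 0.07. The target of the edit, *Vangl2*, was at 0.68 ± 0.17 (adjusted p = 0.00248).

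Among ligand-related genes, *Gas1* was at 3.61 ± 0.11, *Gpc3* at 1.46 ± 0.24, *Cdon* at 1.01 ± 0.08 and *Disp1* at 0.21 ± 0.08. The *Disp1* difference (adjusted p = 0.0348) was missed without *KD1* replicate 1 (0.23), *KD1* replicate 2 (0.20), *KD1* replicate 3 (0.18) or *KD2* replicate 1 (0.20). It was also missed with DESeq2 (0.20), no filter (0.17) and a replicate block (0.21). Its adjusted p ran from 0.00236 to 0.268 over 16 alternatives. *Lrp2* had a fitted value of 3.02 (bounded at 5.81-fold or more) and *Scube3* of 2.83 (3.44-fold or more). Neither counts as tested, since both fail the filter once *KD2*, where they are high, is left out of it.

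Among regulators, *Stk36* was at 1.47 ± 0.13, *Ift80* at 1.03 ± 0.08, *Ulk3* at 0.71 ± 0.08 and *Gpr161* at -1.08 ± 0.07. Among Gli targets, *Foxf1* was at 7.17 ± 0.14, *Mycn* at 5.91 ± 0.53 (at least 16.0-fold), *Snai1* at 3.08 ± 0.19, *Sfrp1* at 0.79 ± 0.08, *Foxl1* at -1.01 ± 0.26 and *Ccnd1* at -1.29 ± 0.05. The *Foxl1* difference passed the test but was under 2-fold with library size alone (-0.88) and without *KD1* replicate 2 (-0.94), *KD1* replicate 3 (-0.94) or *KD2* replicate 2 (-0.81).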

How the results depend on the processing

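Of the single-gene values under alternatives (without *Hhip*, *Lrp2* and *Scube3*, not counted as tested), 1045 kept direction and side of the threshold, 28 lost the test, 9 gained it and 10 reversed; every reversed value was near 0 and had not passed the test. With 10 counts in every culture, which removes genes silent in a line, 1319, 1698 and 1914 genes were called (*KD1* against *WT*, *KD2* against *WT*, *KD2* against *KD1*; 2568, 3235 and 3556 in the main fit), and 5, 3 and 7 wider pathway genes (11, 8 and 13, here with *Lrp2* and *Scube3*). Leaving out 1 culture moved *Smo* in *KD1* against *WT* between -0.068 and 0.011, *Kif7* in *KD2* against *WT* between -0.044 and 0.210, *Vangl2* in *KD2* against *WT* between -0.038 and 0.134, *Sufu* in *KD2* against *KD1* between -0.041 and 0.014, and *Boc* in *KD2* against *KD1* between -0.0026 and 0.28. Library size alone turned *KD2* against *KD1* to 0.0180 for *Smo*, 0.109 for *Sufu* and 0.0312 for *Hhat*, and 10 counts in every culture turned *Sufu* to 0.0178; the median of all genes moved by about the same amounts as these genes, 0.126 and 0.0353. *Gli1*, *Sufu* against *WT*, *Ptch1* in *KD2* and *Gli3* in *KD1* kept direction and side of the threshold in all their alternatives. With the replicate block 2560, 3227 and 3552 genes were called; *Smo* in *KD2* against *WT* (-0.15, adjusted p = 0.0571) and *Disp1* in *KD2* against *KD1* (adjusted p = 0.0568) lost the test, *Kif7* in *KD1* gained it (-0.29, adjusted p = 0.0426), *Foxl1* in *KD2* against *KD1* missed the limit of 2-fold (-0.99; 12 wider pathway genes called in place of 13), and no other call of a named gene changed. Deviations of cultures with the same number correlated between -0.0652 and 0.0789, and those with different numbers between -0.101 and 0.107, so the numbers were not taken as pairs. Depth limits what can be said of genes at or under 3 counts, such as *Gli2*, *Shh* and *Dhh*, and of *Ihh*, with at most 5 counts.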
